A study of Mus musculus with 4 samples.

Results

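A set of 9 genes of growth factor signalling, retinoid handling and extracellular matrix that are typical of the brain's covering membranes were read on 4 single-colour DNA microarrays of mouse dorsal raphe nucleus. They were Igf2, Igfbp2, Igfbp7, Crabp2, Ogn, Dcn, Mgp, Slc6a13 and Lum, and each has 1 probe, so 9 of 23473 probes and 9 of 16383 named genes are described. They were chosen from measured differences between these same arrays, so their levels and differences are a description. The probes were found by gene symbol in the array's annotation, with no threshold on any value. There was 1 array per group, and its RNA came from a pool of 5 male mice (C57BL/6J, age 10 weeks). The groups were stressed mice without the long form of the dopamine D2 receptor (D2LR-KO), which keep its short form, stressed mice without the D2 receptor (D2R-KO), stressed wild-type mice (WT) and non-stressed WT mice. Stressed mice swam under force for 6 min on 4 days in a row, and the tissue was dissected 12 h after the last swim. No array of non-stressed knockout mice was analysed here, so genotype and stress cannot be told apart when a knockout array is set against non-stressed WT. The labels do not say how either knockout was made.

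The meninges hold fibroblasts that lay down collagen and small leucine-rich proteoglycans, short core proteins that bind collagen fibrils and growth factors. These cells also secrete insulin-like growth factor II and proteins that bind it, make retinoic acid for the underlying brain, and carry transporters that clear solutes from the cerebrospinal fluid. Several of the genes have further sources in brain: Igf2 and Igfbp2 are also made by the choroid plexus, Igfbp7 by endothelium, and Mgp by smooth muscle of vessels. In pooled tissue RNA, fewer cells of a type and less RNA per cell cannot be told apart.

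All 9 genes were above the detection limit on all 4 arrays, a limit placed 2 SD above the mean of spots that carry no probe. Between 91.0% and 91.6% of gene probes passed it on each array. The stressed WT array stood apart from the others: across 14704 genes it correlated with them at r = 0.954 to 0.962, while the other pairs of arrays correlated at 0.9896 to 0.9937. Setting either knockout against non-stressed WT, or the knockouts against each other, takes no difference from it, although the normalization drew on all 4 arrays. Normalized without it, the 27 differences of the 9 genes in those comparisons moved by less than the highest SD of control spots. Markers of the labelled tissue were present unevenly. Tph2, the enzyme of serotonin synthesis in neurons, had deposited intensities of 151.5 in stressed D2LR-KO, 264.6 in stressed D2R-KO, 10.7 in stressed WT and 31.4 in non-stressed WT. Its level in stressed WT lay below the array median of 25, and how much dorsal raphe each pool held was not tested. Drd2, the targeted gene, had 48.3, 20.9, 43.8 and 26.8 in the same order of arrays, but where its probe lies relative to the deleted parts is not known here, so it checks the labels little. No value has a replicate error and no difference could be tested. The only error at hand is that of repeated control spots, whose difference between 2 arrays had an SD of 0.0966 to 0.227 in log2 units. These were positive controls with mean log2 signals of 11.98 to 13.69, brighter than the 9 genes, which reached at most 11.14. The error of dimmer spots was not measured. That of the control spots covers the spots alone and says nothing of the spread between mice.

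Igf2 encodes insulin-like growth factor II, a secreted mitogen that acts through the type 1 receptor and is cleared by the type 2 receptor. Its probe (M300000003) had deposited intensities of 1263.6 on the stressed D2LR-KO array, 355.3 on the stressed D2R-KO array, 244.3 on the stressed WT array and 567.6 on the non-stressed WT array. The D2LR-KO array was thus highest, non-stressed WT next, and the other 2 stressed arrays lowest. On the log2(signal + 50) scale used for all differences here, D2LR-KO exceeded non-stressed WT by 1.05, stressed WT by 1.91 and D2R-KO by 1.84. D2R-KO and stressed WT lay below non-stressed WT, with differences of -0.79 and -0.86, and they differed from each other by 0.07, less than the spread of control spots. That last difference was 0.58 with median scaling and 0.50 with the deposited values plus 25, above that spread, and -0.0039 with cyclic loess, so whether the 2 arrays are alike depends on the scaling. Of 15606 genes compared between D2LR-KO and D2R-KO, Ttr was the only one with a larger positive difference than Igf2, but 339 genes lay above it when the brightness around each spot was the background.

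The Igf2 spot lay in a bright surround. Its spot median was 1947, 677, 427 and 1202 on the D2LR-KO, D2R-KO, stressed WT and non-stressed WT arrays, and the brightness around it was 1460, 336, 243 and 1169. On the non-stressed WT array the surround was therefore nearly as bright as the spot. With that brightness taken as background in place of the blank spots, the Igf2 differences from non-stressed WT became 2.45 in D2LR-KO, 1.78 in D2R-KO and 1.48 in stressed WT. The order of D2R-KO and stressed WT against non-stressed WT thus turned round with this choice, while D2LR-KO stayed highest.

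Igfbp2 and Igfbp7 encode secreted proteins that bind insulin-like growth factors, the first with high affinity and the second weakly. Igfbp2 (M200009370) had deposited intensities of 680.1 in stressed D2LR-KO, 342.1 in stressed D2R-KO, 265.7 in stressed WT and 469.4 in non-stressed WT. Its order of arrays by deposited intensity was the one seen for Igf2, and the 2 genes correlated at r = 0.989 over the 4 arrays. D2LR-KO exceeded D2R-KO by 1.02, stressed WT by 0.93 and non-stressed WT by 0.45 in log2 signal, and the last became 0.00 with the background around each spot. D2R-KO against stressed WT gave -0.09 after quantile normalization and 0.42 with each array scaled to a common median, so the lowest array for Igfbp2 depends on the scaling.

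Igfbp7 (M200000191) had deposited intensities of 872.4 in stressed D2LR-KO, 391 in stressed D2R-KO, 127.2 in stressed WT and 436.4 in non-stressed WT. Here the stressed WT array was the low one, and D2R-KO lay close to non-stressed WT. In log2 signal stressed WT differed from non-stressed WT by -1.37, D2R-KO by -0.29 and D2LR-KO by 0.92. Its surround was bright as well, with 1220, 608, 194 and 879 around spots of 1355, 741, 241 and 933 in D2LR-KO, D2R-KO, stressed WT and non-stressed WT. With the surround as background, the differences from non-stressed WT were 0.69 in D2LR-KO, 0.47 in D2R-KO and -0.16 in stressed WT, and D2LR-KO exceeded stressed WT by 0.85 and D2R-KO by 0.22. No difference of Igfbp7 then reached 2-fold.

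Crabp2 encodes a cytosolic protein that carries retinoic acid to its nuclear receptors. Its probe (M200001933) had deposited intensities of 300.8 in stressed D2LR-KO, 94.3 in stressed D2R-KO, 14.7 in stressed WT and 113.9 in non-stressed WT. Stressed WT was far below the rest. D2R-KO minus non-stressed WT was -0.28 in log2 signal, and -0.59 with the background around each spot. D2LR-KO exceeded stressed WT by 2.88 in log2 signal, and no other of 15640 genes had a larger positive difference in that comparison. With the background around each spot the difference was 2.09, and 21 genes lay above it. In the comparisons that take no difference from the stressed WT array, D2LR-KO exceeded non-stressed WT by 1.17 and D2R-KO by 1.45, and each of those differences was passed by 5 genes. Against non-stressed WT these were Acta2, Anp32a, Slc6a5, Tagln and Tph2, and against D2R-KO they were Acta2, Igf2, Itpka, Tagln and Ttr. With the background around each spot D2LR-KO exceeded non-stressed WT by 0.81, under 2-fold, with 707 genes above it, and D2R-KO by 1.39, with 25 above it. The plain log2 of the deposited values placed 66 and 22 genes above Crabp2 in these comparisons.

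Ogn, Dcn and Lum encode osteoglycin, decorin and lumican, small leucine-rich proteoglycans that bind collagen. Ogn (M200001655) had deposited intensities of 232.2 in stressed D2LR-KO, 85.5 in stressed D2R-KO, 24.8 in stressed WT and 90 in non-stressed WT. Lum (M200003701) had 78.1, 45.9, 23.9 and 54 on the same arrays in the same order. Both genes were highest in D2LR-KO and lowest in stressed WT. D2R-KO lay below non-stressed WT, with log2 differences of -0.12 for Ogn and -0.17 for Lum. The log2 difference of D2LR-KO from non-stressed WT was 1.11 for Ogn and 0.37 for Lum, and that of stressed WT from non-stressed WT was -1.13 for Ogn and -0.64 for Lum. With the background around each spot, Ogn in D2LR-KO against non-stressed WT was 0.69. D2R-KO against non-stressed WT then came to -0.57 for Ogn and -0.34 for Lum.

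Dcn departed from this order. Its probe (M200000752) had deposited intensities of 344.1 in stressed D2LR-KO, 153.1 in stressed D2R-KO, 230.4 in stressed WT and 258.8 in non-stressed WT. The D2R-KO array was the lowest, and stressed WT lay near non-stressed WT. Stressed WT minus non-stressed WT was 0.14 after quantile normalization and -0.33 with median scaling, so the direction depends on the scaling. D2LR-KO exceeded D2R-KO by 1.09 in log2 signal, and D2R-KO lay 0.74 below non-stressed WT (difference -0.74). Over the 4 arrays Dcn correlated with the other 8 genes at r = 0.05 to 0.71, whereas Igfbp7, Crabp2, Ogn, Mgp and Lum correlated among themselves at 0.977 to 0.9995. Such a correlation rests on 4 points that share the arrays and is given as a description.

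Mgp encodes matrix Gla protein, which inhibits calcification once vitamin K-dependent carboxylation has modified it. Its probe (M300007075) had deposited intensities of 1364.6 in stressed D2LR-KO, 759.8 in stressed D2R-KO, 177 in stressed WT and 608 in non-stressed WT. With blank spots as background, Mgp was the one gene of the 9 with D2R-KO above non-stressed WT, by 0.11 in log2 signal, a size inside the range of the control-spot SDs. That difference was 0.20 with median scaling, and the deposited intensities had a ratio of 1.25, so its size depends on the scaling. D2LR-KO exceeded non-stressed WT by 1.05 and stressed WT by 2.47, and D2R-KO exceeded stressed WT by 1.53. The first of these was 0.88, under 2-fold, with the background around each spot.

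Slc6a13 encodes GAT2, a transporter of GABA and taurine found in leptomeninges rather than in neurons. Its probe (M200005069) had deposited intensities of 89.8 in stressed D2LR-KO, 44.4 in stressed D2R-KO, 25.1 in stressed WT and 86.2 in non-stressed WT. D2LR-KO and non-stressed WT were close together, and both lay above the other 2 arrays. Their log2 difference of 0.05 is smaller than the spread of control spots, which are far brighter than this probe. D2R-KO differed from non-stressed WT by -0.66 and stressed WT by -1.07. With the background around each spot these became -0.35 and -0.40, and D2LR-KO exceeded non-stressed WT by 0.37, while median scaling gave -0.10 for D2LR-KO.

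**Figure D1:**
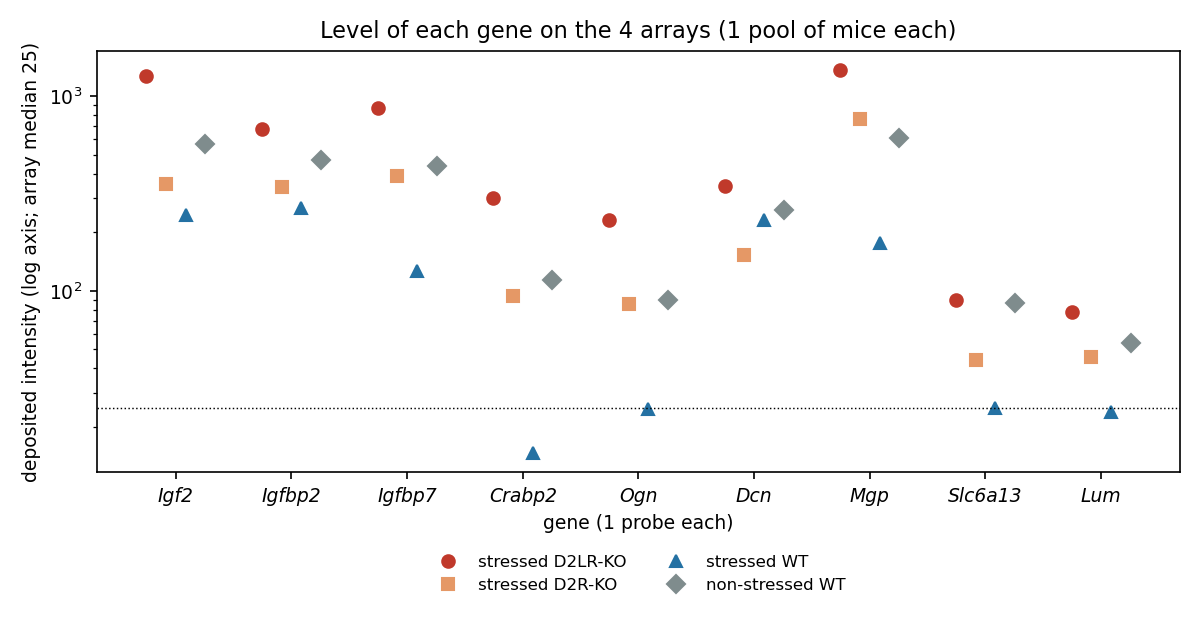
Deposited intensity (log axis, dotted line at the array median of 25) of the 9 genes on the stressed D2LR-KO, stressed D2R-KO, stressed WT and non-stressed WT arrays, 1 point per array. The D2LR-KO point is the highest for all 9 genes, and the stressed WT point is the lowest for all but Dcn.

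Stressed D2LR-KO was set against non-stressed WT, the comparison named in the study's design. Genotype and stress both differ between these arrays and cannot be told apart. Igf2, Crabp2, Ogn and Mgp were at least 2-fold higher, 4 of the 9, against 0.109% of the 15574 genes compared, and 0 were at least 2-fold lower against 0.308%. At 1.5-fold, Igfbp7 joined them, giving 5 higher against 0.745% of all genes and 0 lower against 1.41%. The 4 genes became 1 with median scaling, beside 0.0514% of all genes, and 1 with the surround as background, beside 3.18%. The median difference was 0.92 over the 9 genes and 0.00 over all genes. These genes were picked with this comparison in view, so the counts describe them and support nothing further.

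Stressed D2R-KO against non-stressed WT gave 0 of the 9 at least 2-fold higher, against 0.115% of all genes, and 0 at least 2-fold lower, against 0.32%. The 3 genes at least 1.5-fold lower were Igf2, Dcn and Slc6a13, beside 1.48% of all genes, with 0 higher beside 0.577%, and the median over the 9 was -0.29. Stressed WT against non-stressed WT gave 0 higher, against 1.46% of all genes, and 5 at least 2-fold lower, against 2.14%. These 5 were Igfbp7, Crabp2, Ogn, Mgp and Slc6a13, and the median over the 9 was -1.07. At 1.5-fold, Igf2 and Lum joined them, giving 7 lower beside 8.11% of all genes and 0 higher beside 7.28%. With the surround as background, 3 genes were at least 2-fold lower in stressed WT, beside 3.68% of all genes. Igf2 alone was then 2-fold higher, 1 of the 9 in D2R-KO beside 3.41% of all genes and 1 in stressed WT beside 4.79%. The 3 comparisons share the non-stressed WT array.

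Among the stressed mice, D2LR-KO against WT gave 7 genes at least 2-fold higher, all but Igfbp2 and Dcn, against 2.62% of 15640 genes. None was at least 2-fold lower, against 1.83%, and the median was 1.91. At 1.5-fold, 8 were higher, Igfbp2 included, beside 8.72% of all genes, and 0 lower beside 8.2%. D2R-KO against stressed WT gave 4 at least 2-fold higher, namely Igfbp7, Crabp2, Ogn and Mgp, against 2.71% of all genes, and 0 lower against 2.57%. The median there was 0.47, and Dcn was the one gene at least 1.5-fold lower, with a difference of -0.88 and 8.64% of all genes beside it. The same 4 genes were the ones at least 1.5-fold higher, beside 9.31%. With the surround as background the counts of 2-fold higher genes were 3 for D2LR-KO, beside 2.26% of all genes, and 1 for D2R-KO, beside 2.42%. Cyclic loess gave 2 for D2R-KO, beside 2.08%. Both comparisons use the stressed WT array that stood apart.

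D2LR-KO against D2R-KO compares the knockouts under the same stress and takes no difference from a WT array, although both WT arrays entered the normalization. In D2LR-KO, 6 of the 9 were at least 2-fold higher, namely Igf2, Igfbp2, Igfbp7, Crabp2, Ogn and Dcn, beside 0.147% of 15606 genes. None was at least 2-fold lower, beside 0.0513%. The other 3 were higher by 0.94 for Mgp, 0.72 for Slc6a13 and 0.54 for Lum, and the median over the 9 was 1.09. At 1.5-fold all but Lum were higher, 8 of the 9 beside 0.666% of all genes, and 0 lower beside 0.333%. Normalized without the stressed WT array, the count was again 6 and the median 1.13. It became 3 with median scaling, beside 0.0705% of all genes, and 3 with the surround as background, beside 0.673%. Each of the 9 lay above the central 95% of all genes, whose upper end was 0.35.

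By quantile-normalized signal all 9 genes were highest on the D2LR-KO array, as were 18% of the 14704 genes detected on all arrays. On the stressed WT array 7 were lowest, as were 38.5% of those genes, and Igfbp2 and Dcn were lowest in D2R-KO, as were 21.7%. These 7 were both highest in D2LR-KO and lowest in stressed WT, an order shown by 12.4% of genes. Under median scaling 8 of the 9 were highest in D2LR-KO, with Slc6a13 as the exception, and 8 were lowest in stressed WT, with Dcn as the exception. The mean deviation of the 9 genes from their own 4-array average was 0.88 in D2LR-KO, -0.24 in D2R-KO, -0.80 in stressed WT and 0.15 in non-stressed WT.

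**Figure D2:**
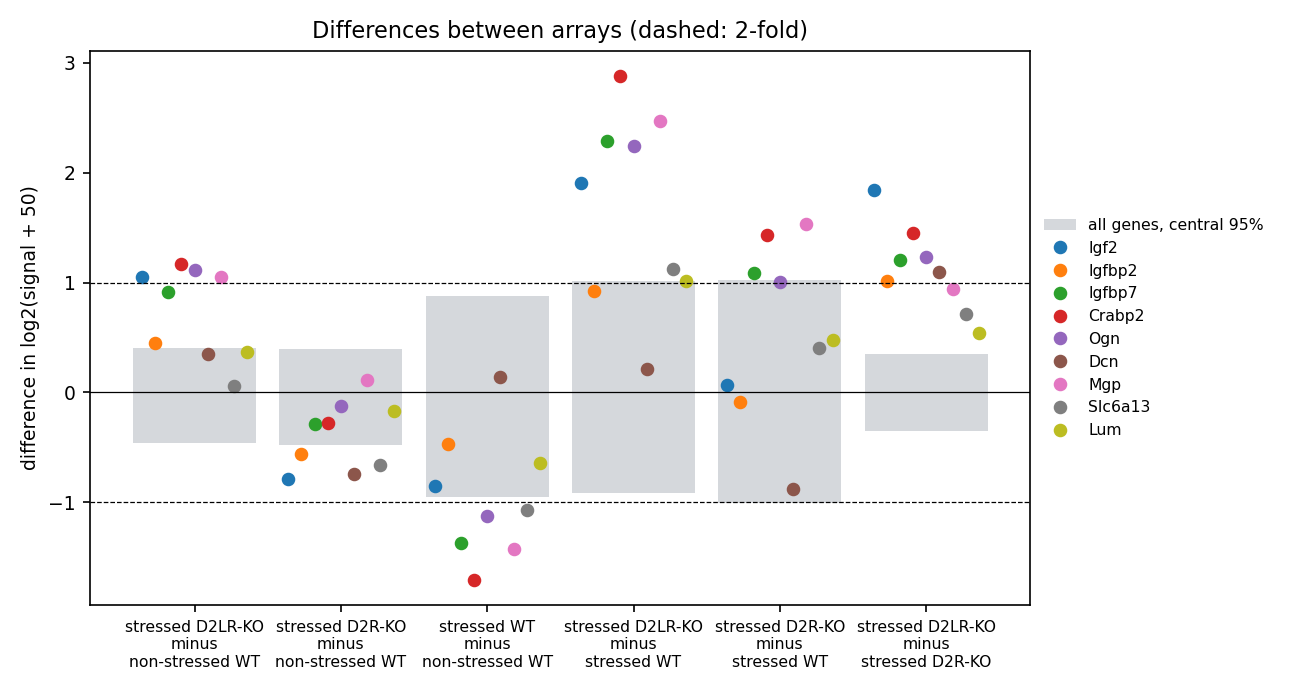
Difference in log2(signal + 50) of the 9 genes in the 6 comparisons (points), over the central 95% of all genes (grey bars), with dashed lines at 2-fold. In D2LR-KO minus D2R-KO all 9 points lie above the grey bar, while in stressed WT minus non-stressed WT 5 points lie below it.

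**Figure D3:**
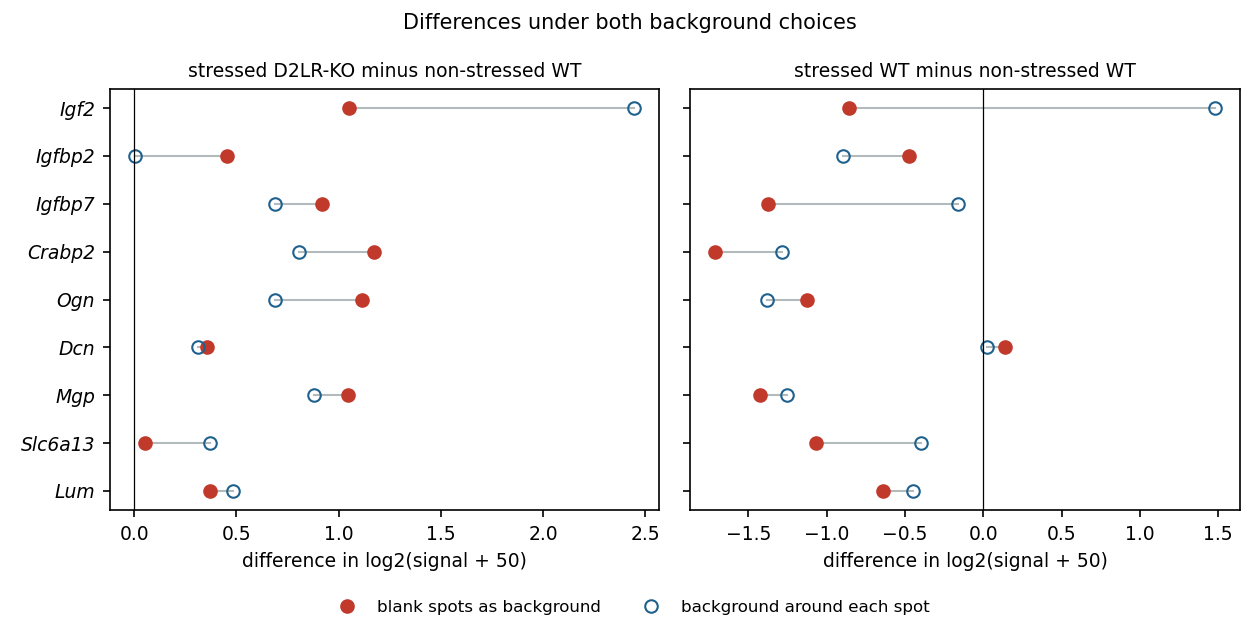
Difference in log2(signal + 50) from non-stressed WT of each gene on the D2LR-KO array (left) and the stressed WT array (right), with blank spots as background (filled) or the brightness around each spot (open). Igf2 moves the most, to 2.45 in D2LR-KO and 1.48 in stressed WT.

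The rest of the insulin-like growth factor system was read in D2LR-KO against non-stressed WT. Of 21 further genes for ligands, receptors, binding proteins and their regulators, 20 had a probe and 19 could be compared. None of the 19 reached 1.5-fold in either direction, beside 0.745% of all genes higher and 1.41% lower, and their median was 0.00. Igfbp6, a binding protein that prefers insulin-like growth factor II, had the largest positive difference at 0.44, with deposited intensities of 320.7 in D2LR-KO, 271.7 in D2R-KO, 445.3 in stressed WT and 224 in non-stressed WT. That difference lay above the central 95% of all genes, whose upper end was 0.41, and was close to the one of Igfbp2. Igfbp6 was highest on the stressed WT array, unlike Igfbp2 and Igfbp7. Igfbp3, the main carrier in blood, differed by -0.35, Stc1, an inhibitor of the protease that frees the growth factors, by -0.28, and Igfbp5 by 0.24.

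Among 18 other genes of retinoid binding, synthesis and signalling, 16 were measured, with a median of 0.00 in D2LR-KO against non-stressed WT. At 1.5-fold, 1 was higher beside 0.745% of all genes and 0 lower beside 1.41%. The 1 gene was Rbp4, the carrier of retinol, with 109.8 in D2LR-KO, 55.5 in D2R-KO, 13.3 in stressed WT and 47.8 in non-stressed WT. That is the order seen for Mgp. Crabp1, the close relative of Crabp2, differed by -0.30, the receptor gene Rxrg by -0.28 and Aldh1a1, an enzyme of retinoic acid synthesis, by 0.27.

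All 13 other small leucine-rich proteoglycan and related genes were measured. In D2LR-KO against non-stressed WT, 2 were at least 1.5-fold higher, beside 0.745% of all genes, and 0 lower, beside 1.41%. Biglycan (Bgn) had 180.9 in D2LR-KO, 126.1 in D2R-KO, 41.7 in stressed WT and 99.9 in non-stressed WT, a difference of D2LR-KO from non-stressed WT of 0.70. The differences were 0.61 for asporin (Aspn), 0.50 for fibromodulin (Fmod) and 0.36 for osteomodulin (Omd). Against stressed WT, 5 of the 13 were at least 2-fold higher in D2LR-KO, namely these 4 and Ecm2, beside 2.62% of all genes. None was 2-fold lower, beside 1.83%, and at 1.5-fold 1 was lower, Optc by -0.74, beside 8.2%. The list's median was 0.06 against non-stressed WT (-0.01 with the background around each spot) and 0.13 against stressed WT.

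Around Mgp, 7 of 9 genes of vitamin K-dependent carboxylation and its partners were measured. Bmp4, a growth factor that Mgp binds, was the one at least 1.5-fold higher in D2LR-KO than in non-stressed WT, by 0.74. None was lower, and over all genes 0.745% were higher and 1.41% lower at that limit. Spp1 (osteopontin) differed by 0.58, Pros1 (protein S) by 0.21 and Gas6 by 0.17, and under the background around each spot Pros1 came to -0.24 and Gas6 to -0.31. The list's median was 0.17, and it was -0.24 with that background and -0.02 with median scaling. Of 8 other transporter genes, 7 had a probe and 6 could be compared. At 1.5-fold, 0 were higher beside 0.745% of all genes and 1 lower beside 1.41%. Slc6a11, the GABA transporter GAT3 of astrocytes, was lower in D2LR-KO, with 108.3 in D2LR-KO, 207.7 in D2R-KO, 112.1 in stressed WT and 233.6 in non-stressed WT, a difference of -0.92. Slc22a6 and Slc22a8, organic anion transporters found in leptomeninges, and Slc6a12, the betaine transporter, differed by 0.51, 0.42 and 0.44.

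Genes next to one of the 9 in the RefSeq order of protein-coding genes differed in whether they shared its pattern. Genes of other kinds that may lie between were passed over. Dcn and Lum are direct neighbours on chromosome 10, 47.3 kb apart, and followed different orders of arrays. Kera, the proteoglycan gene on the other side of Lum, was dim, with 3, 2.8, 3.9 and 5.1 in D2LR-KO, D2R-KO, stressed WT and non-stressed WT. Omd, 15.4 kb from Ogn on chromosome 13, had 42.6, 22, 5 and 26.9 in the same order, which follows Ogn. Slc6a12, 4.85 kb from Slc6a13 on chromosome 6, had 75.8 in D2LR-KO, 46.9 in D2R-KO, 32.9 in stressed WT and 48.2 in non-stressed WT. The neighbours of Igfbp2 and Igf2 had other orders. Igfbp5, 5.59 kb from Igfbp2 on chromosome 1, was highest in stressed WT, with 92.5, 95.5, 117.7 and 73.7 in that order of arrays. Ins2, the insulin gene 11.8 kb from Igf2 on chromosome 7, had 13, 14, 33.7 and 15.6 and was also highest in stressed WT. For the 10 other neighbours with a probe, namely Mrpl23, Rpl37a, Polr2b, Adgrl3, Isg20l2, Nes, Nol8, Art4, Erp27 and Usp18, D2LR-KO minus non-stressed WT lay between -0.29 (Usp18) and 0.20 (Nes). Stressed WT minus non-stressed WT ranged more widely, from -0.94 (Polr2b) to 0.69 (Nol8). Some of these neighbours lie far off, with Mrpl23 110 kb from Igf2 and Adgrl3 3611 kb from Igfbp7. Polr2b, whose annotated span overlaps that of Igfbp7, had 322.8, 451.2, 140.7 and 345.4 in that order of arrays. It was lowest in stressed WT like Igfbp7, as were 38.5% of genes detected on all arrays.

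RefSeq promoters (build GRCm38.p6) were matched to 5 of the 9 genes, Igf2, Igfbp2, Igfbp7, Ogn and Slc6a13, with 11 start sites in all. Crabp2, Dcn, Mgp and Lum were not matched. The 250 bases before the start are shown for Igf2 (its outermost start), Igfbp7 and Ogn, the 3 of the 5 with the largest difference between D2LR-KO and stressed WT. They are printed 5′ to 3′ on the gene's strand, and capitals mark a match on either strand to the TATA box (letters TATAAA), the GC box (letters GGGCGG), the nuclear receptor half-site (letters AGGTCA) or the TEAD factor motif (letters GGAATG). Overlapping matches are joined in one run of capitals.
Igf2, chr7:142666817-142667066, minus strand: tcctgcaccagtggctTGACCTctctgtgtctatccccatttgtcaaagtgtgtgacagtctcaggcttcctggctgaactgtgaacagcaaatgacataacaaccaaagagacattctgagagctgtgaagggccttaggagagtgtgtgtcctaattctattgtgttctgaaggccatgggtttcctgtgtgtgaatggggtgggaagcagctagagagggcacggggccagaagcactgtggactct
Igfbp7, chr5:77408046-77408295, minus strand: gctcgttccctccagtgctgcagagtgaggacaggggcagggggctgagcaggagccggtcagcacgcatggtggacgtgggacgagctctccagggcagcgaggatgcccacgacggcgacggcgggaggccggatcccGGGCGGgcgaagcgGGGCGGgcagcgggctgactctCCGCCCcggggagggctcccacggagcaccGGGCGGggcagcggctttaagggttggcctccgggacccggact
Ogn, chr13:49607765-49608014, plus strand: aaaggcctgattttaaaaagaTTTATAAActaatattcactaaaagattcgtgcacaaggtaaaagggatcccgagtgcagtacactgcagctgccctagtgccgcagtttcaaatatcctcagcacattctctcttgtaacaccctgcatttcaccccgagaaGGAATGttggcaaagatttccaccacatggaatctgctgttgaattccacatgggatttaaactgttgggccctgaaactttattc
The Igfbp7 window has a GC content of 74% and 4 matches to the GC box, which 32.7% of all 32851 promoter windows of this length hold. The Ogn window has a GC content of 42%, with 2 overlapping matches to the TATA box, held by 12.4% of all windows, and 1 match to the TEAD motif, held by 12.6%. In the Igf2 window the GC content is 50.8%, with 1 match to the nuclear receptor half-site, held by 14%. The median GC content of all windows is 52.4%. Igf2 has 4 start sites that differ. Its windows not shown, with GC contents of 47.6%, 68.8% and 66%, hold 2, 1 and 1 TEAD matches and 0, 1 and 2 GC box matches. The 3 windows shown have no motif of the 4 in common, but those other Igf2 windows hold motifs that the Ogn or Igfbp7 window also holds. A match is a description of the letters only.

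The genes whose profile over the 4 arrays was most like the mean of the 9 were sought among 1102 genes detected on all arrays with at least a 2-fold range. The 10 most alike were Slc22a6, Itih2, Islr, Lamb2, Asgr1, Fmod, Vtn, Mpzl1, Emp3 and Cbr2, with r = 0.992 to 0.999 over 4 arrays, and 62 genes had r above 0.9. Vtn, which encodes vitronectin, an adhesive protein of matrix and plasma, had 1565.6 in D2LR-KO, 811.5 in D2R-KO, 396.5 in stressed WT and 1001.4 in non-stressed WT. Lamb2, a laminin chain of basement membranes, had 202, 107.2, 64 and 126.4 in the same order. Emp3, a membrane protein gene, had 243.1, 80.5, 37.5 and 100.8 and differed the most of the 10 between D2LR-KO and non-stressed WT, by 1.05. Slc22a6, Islr and Vtn are also among the fibroblast and meningeal markers, Slc22a6 also among the transporters, and Fmod is in the proteoglycan list.

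Marker lists of the cell types that such a dissection can hold were read beside the 9 genes. Of 26 other fibroblast and meningeal markers, 23 were measured, and all 23 were detected on every array. Since 91.0% to 91.6% of all gene probes passed that limit, detection says little of these cells, and Cldn11 and Pdgfra of the list are also expressed by glia. Col1a1, a defining collagen chain, was dim on every array, with 8, 5, 7.6 and 8 in D2LR-KO, D2R-KO, stressed WT and non-stressed WT. In D2LR-KO against non-stressed WT, 19 of the 23 were above 0, beside 50.9% of all genes, with a median of 0.19. At 1.5-fold, 4 were higher beside 0.745% of all genes and 0 lower beside 1.41%. The 4 were Fn1 (fibronectin, 0.84), Col3a1 (0.77) and Col1a2 (0.61), chains of fibrillar collagens, and Serping1, an inhibitor of complement (0.60). Col3a1 had 106.4 in D2LR-KO, 40.4 in D2R-KO, 26.1 in stressed WT and 50.5 in non-stressed WT, the order seen for Ogn. In D2R-KO, 20 of the 23 were below 0, with a median of -0.19, while 52.4% of all genes were above 0. In stressed WT 19 were below 0, with a median of -0.46, while 51.0% of all genes were above 0. There 7 were at least 1.5-fold lower, beside 8.11% of all genes, and 0 higher, beside 7.28%. The summed deposited intensity of the list was 4450.3 in D2LR-KO, 3226.9 in D2R-KO, 2014.0 in stressed WT and 3863.9 in non-stressed WT. Vtn and Cldn11 together made up most of that sum on every array. In the same order, Vtn had 1565.6, 811.5, 396.5 and 1001.4, and Cldn11 had 1122.5, 1357.3, 880.6 and 1563.1. The sum is therefore no measure of the fibroblasts alone. The list's median kept its sign under every alternative tried in these 3 comparisons.

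Smooth muscle and pericyte markers were also higher in D2LR-KO. All 12 measured were above 0 against non-stressed WT, beside 50.9% of all genes, with a median of 0.45. At least 2-fold higher were 4 of them, beside 0.109% of all genes. Acta2, smooth muscle actin, had 1364.9 in D2LR-KO, 512.7 in D2R-KO, 235.5 in stressed WT and 319.9 in non-stressed WT, a difference of 1.94. Tagln differed by 1.62, Tpm2 by 1.04 and Cnn1 by 1.01, all of the contractile apparatus. The summed intensity of the list was 2331.5, 994.0, 539.4 and 719.0 in D2LR-KO, D2R-KO, stressed WT and non-stressed WT. In D2R-KO and stressed WT the list's medians against non-stressed WT were 0.09 and -0.13, the second turning to 0.01 with the background around each spot.

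Choroid plexus and ependymal markers followed another order. All 12 measured were below 0 in D2LR-KO against non-stressed WT, while 50.9% of all genes were above 0. The list's median was -0.67 there, -0.80 in D2R-KO and -0.93 in stressed WT. Ttr, transthyretin, had 193.1 in D2LR-KO, 20.3 in D2R-KO, 5720.2 in stressed WT and 12884.0 in non-stressed WT. Between the knockouts, its difference of D2LR-KO from D2R-KO was 2.15. Folr1, Kcne2 and Clic6, genes of that epithelium, were at least 2-fold lower or near it in D2LR-KO, with differences of -1.46, -1.17 and -0.997. The summed intensity was 2138.1, 2326.5, 6738.0 and 15649.2 in the same order of arrays. Enpp2, which oligodendrocytes also express, made up most of the sum in the knockouts, with 1812.3 in D2LR-KO and 2171.6 in D2R-KO, and Ttr made up most of it in both WT groups.

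The 13 brain endothelial markers had a median of 0.12 in D2LR-KO, -0.02 in D2R-KO and -0.49 in stressed WT against non-stressed WT, the last becoming 0.01 with the background around each spot. None of the 13 reached 1.5-fold in D2LR-KO, beside 0.745% of all genes higher and 1.41% lower. Their summed intensity was 2800.1, 2721.9, 1299.8 and 2545.2 in D2LR-KO, D2R-KO, stressed WT and non-stressed WT. The 10 measured blood and leukocyte markers had medians of 0.17, -0.20 and -0.24 in D2LR-KO, D2R-KO and stressed WT. The largest difference in D2LR-KO was 0.59 for H2-Aa, of antigen presentation, which became -0.13 with the background around each spot, and the list summed to 480.7, 210.2, 212.8 and 329.4. The 7 pituitary hormone genes with a probe summed to 97.2, 585.8, 125.3 and 89.2 in D2LR-KO, D2R-KO, stressed WT and non-stressed WT, and the 6 that could be compared had medians of 0.02, 0.74 and 0.11 in the stressed groups against non-stressed WT. On the D2R-KO array Prl, Pomc and Gh, which encode prolactin, proopiomelanocortin and growth hormone, were higher by 2.47, 1.86 and 1.32, whereas Cga, Lhb and Fshb differed by 0.16, 0.03 and 0.05. The 11 measured serotonergic markers had medians of 0.31 in D2LR-KO, 0.54 in D2R-KO and -0.04 in stressed WT. The part of any of these cell types in the levels of the 9 genes was not tested.

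**Figure D4:**
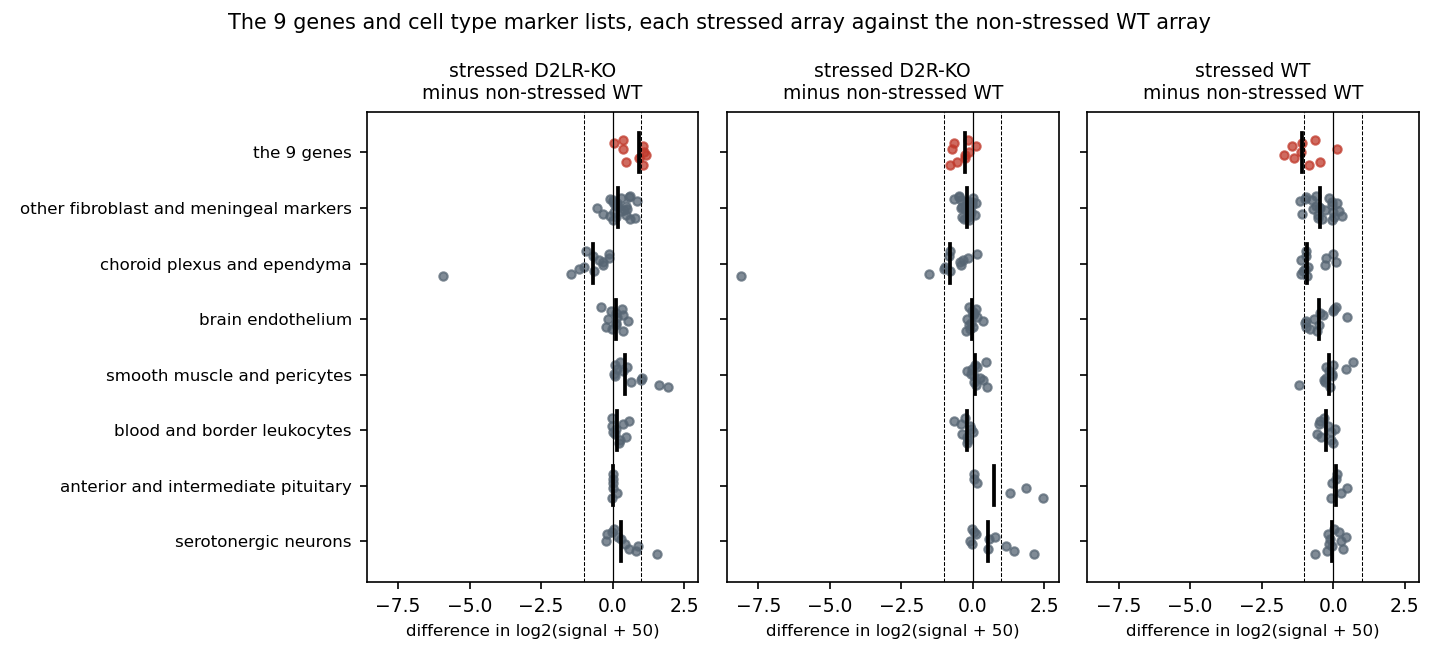
Difference in log2(signal + 50) from non-stressed WT for the 9 genes (red) and for cell type marker lists (grey), 1 point per gene, with black bars at the medians and dashed lines at 2-fold. In D2LR-KO the 9 genes have a median of 0.92, other fibroblast and meningeal markers 0.19, smooth muscle and pericytes 0.45 and choroid plexus -0.67.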

How the data were processed

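Per the labels, total RNA of 1 pool of 5 mice per group was amplified, labelled with Cy5 and hybridised to a Toray array. The scanner files hold, per the file headers, the median intensity at 635 nm of a spot and of the area around it, from 3 scans whose combination the headers do not describe. The authors' deposited table holds linear intensity. Tested on the values, an entry is the spot median less a constant (36.7 to 38.8 by array), divided by a factor (1.51 to 2.05 by array).

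Spot medians were corrected by normexp with 2736 blank spots per array as negative controls (limma 3.58.1 nec, R 4.3.3, offset 50), put on the log2 scale and quantile-normalized over the 4 arrays. Genes counted as 2-fold different had to be detected on at least 1 of the 2 arrays. The offset understates differences of dim genes. With 1 array per group no test was made, and the number of arrays limits precision. Of 23473 probes, 16631 have 1 gene symbol and 6842 none here, and 0 have several. Of 16446 symbols, 12501 were current, 3883 were updated and 62 were kept. The brightest probe was kept for 229 genes with several, and 9 probes marked unusable were left out.

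The 9 genes and all lists were chosen with earlier results of these data known. All 9 are named, plus, per list, up to 4 genes with the largest absolute difference between D2LR-KO and non-stressed WT. Also named are the protein-coding genomic neighbours of the 9 and the 10 genes most alike in profile, predicted genes excepted. A few more genes are named where they complete a count of 5 or fewer. Some others, such as Col1a1, Cldn11, Pdgfra, Enpp2, Cga and Fshb, are named outside these rules to describe a marker list. In all, 10 alternatives were tried. The procedure was tested on simulated data. Further steps used Python 3.11.15, numpy 2.4.6 and pandas 2.3.3.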

Additional observations from a re-analysis of the deposited data

How the results depend on the processing

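No paired analysis was possible because each group has 1 array. Of 165 counts and medians under the alternatives, 143 stayed within 1.5 times the value above or within the highest SD of control spots, 22 moved, and 0 medians over the 9 genes changed sign. Of 459 differences of single genes among the 9, 354 stayed within that SD and 105 moved past it, 32 with the background taken around each spot and 32 with the plain log2 of the deposited values. In all 12 changed sign, 2 of them within that SD: Slc6a13 in D2LR-KO against non-stressed WT with median scaling and Igf2 in D2R-KO against stressed WT with cyclic loess. Averaging over probes could not move a value of the 9 genes, which have 1 probe each. Nor could detection above 3 SD on both arrays, which only leaves genes out. Each of these alternatives put 18 counts and medians and 54 single-gene differences among those that stayed, so the totals overstate the stability.

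With that background, the genes at least 2-fold higher numbered 1 in D2LR-KO, 1 in D2R-KO and 1 in stressed WT against non-stressed WT, 3 in D2LR-KO and 1 in D2R-KO against stressed WT, and 3 in D2LR-KO against D2R-KO. In stressed WT 3 were lower. Medians against non-stressed WT were 0.69 in D2LR-KO and -0.45 in stressed WT. D2LR-KO had medians of 0.93 against stressed WT and 0.76 against D2R-KO. The differences that changed sign past the SD were 1.78 for Igf2 and 0.47 for Igfbp7 in D2R-KO, 1.48 for Igf2 in stressed WT, and 0.18 for Igfbp2 in D2R-KO against stressed WT. The brightness around a spot followed the spot (r = 0.876 to 0.958).

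With median scaling, 1 gene was 2-fold higher in D2LR-KO against non-stressed WT and 3 against D2R-KO, and the median against stressed WT was 2.20. Cyclic loess gave 2 genes higher in D2R-KO against stressed WT. With an offset of 16 the stressed WT median was -1.45. The deposited values gave medians of D2LR-KO against stressed WT of 2.26 with 25 added and 2.37 without, and, without it, -1.78 in stressed over non-stressed WT and 0.94 in D2R-KO over stressed WT. At 1.5-fold, 3 genes were lower in D2R-KO against non-stressed WT and 1 against stressed WT. Igfbp2 in D2R-KO against stressed WT changed sign to 0.42 with median scaling, 0.34 with deposited values plus 25 and 0.36 without, and Dcn in stressed WT to -0.33, -0.15 and -0.17. The causes were not tested.

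The split of all genes moved too. In stressed WT against non-stressed WT, 229 genes were 2-fold higher and 335 lower, against 30 and 893 with median scaling, 749 and 576 around each spot and 80 and 615 with deposited values plus 25. In D2LR-KO against non-stressed WT they were 17 and 48, against 8 and 74, 496 and 134, and 19 and 51. In D2LR-KO against D2R-KO they were 23 and 8, against 11 and 13 with median scaling and 105 and 63 around each spot. In D2R-KO against non-stressed WT they were 18 and 50, against 532 and 256 around each spot. Against stressed WT, D2LR-KO had 409 and 286 and D2R-KO 425 and 403, which became 619 and 74, and 1129 and 49, with median scaling, and 739 and 94, and 1016 and 97, with deposited values plus 25. The deposited values on the plain log2 scale moved the median of all genes by 0.11 in D2R-KO against stressed WT. The arrays' single pools leave the spread between mice unmeasured.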
